A study of Mus musculus with 8 samples.

Results

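The core histone genes encode the H2A, H2B, H3 and H4 proteins around which DNA is wrapped. Rows of the deposited signal table were taken by gene name, as HIST followed by a digit and then H2A, H2B, H3 or H4, which gave 50 of the 18138 rows. The names fall into 4 classes, with 15 rows of H2A, 15 of H2B, 9 of H3 and 11 of H4, and into 4 gene clusters, with 38 rows in cluster 1, 8 in cluster 2, 3 in cluster 3 and 1 in cluster 4. Linker histones (H1) were left out. All 50 names matched a RefSeq gene through its synonyms. The rows were selected on their names alone, but the list was proposed with the measured cB minus DC differences of these arrays known and counts as chosen by them, so the counts and differences below describe these arrays and lend no support to any statement.

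The T cells were of the OT-1 line of mice, whose CD8+ cells carry a receptor for the ovalbumin peptide SIINFEKL held by H2-Kb. They had spent 24 h at a 5:1 ratio with peptide-loaded stimulator cells that had been cultured in vitro and matured with LPS, either CD40-activated B cells (the cB group) or dendritic cells (the DC group). CD8+ CD69+ cells were then sorted, and RNA of 4 samples per group was read on Illumina mouse-ref8-v2.0 beadchips. Nothing in the labels used here says that samples came from separate cultures or animals, so the spread between arrays may be technical, and their number limits the precision. The labels used here give no strain, age or sex of the animals. The question of the comparison is how the kind of stimulator cell changes the activated T cell.

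Replication-dependent histone genes lie in clusters, are transcribed mainly in S phase when new DNA has to be packaged, and give mRNAs that mostly end in a conserved stem-loop in place of a poly(A) tail. Some of them can also give polyadenylated transcripts. The labelling kit primes on poly(A), so the signals need not follow total histone mRNA. The genes of a class are near-identical in their coding sequence, so rows of one class can share signal, and the probe sequences were not used here.

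T cell markers were read on all arrays, and markers of the stimulator cells were low. Of 9 T cell marker rows 8 were tested, with a summed intensity between 46056 and 81153 in cB and between 42235 and 63074 in DC. Cd8b1 read between 9344 and 15483 on all arrays, whereas Cd8a was undetected on all 8. Of 10 B cell marker rows, 3 were undetected everywhere, 3 were higher in cB and 1, Pou2af1, in DC, and their summed intensity was between 2185 and 2507 in cB and between 2188 and 2546 in DC. Pax5, Cd22 and Cr2 were the 3 undetected ones. Rows at background add to both sums, and Pou2af1 alone read between 428 and 480 in cB and between 687 and 1030 in DC. The sums therefore do not show an equal B cell signal in the groups. Among the B cell marker rows higher in cB were Cd79b and Fcmr (at least 5.96-fold for Fcmr with the main background setting). In the authors' deposited table of normalized values the log2 difference of Fcmr, cB minus DC, was 1.08. Of 14 dendritic cell and myeloid marker rows, 6 were undetected everywhere, among them Itgax, Itgam and Flt3. Of these rows, 4 were higher in DC, namely Cd14, Il1b, Cd68 and Fcer1g, and 2 in cB, Fscn1 and Cd86, with summed intensities between 2360 and 2852 in cB and between 2829 and 3004 in DC. Their part in the histone differences was not tested. Over all genes tested, 29.8% were higher in cB and 31.6% higher in DC at an adjusted p below 0.05 in the limma fit. Nothing is read from the marker counts beside these shares.

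Nearly all measurable core histone rows read higher in cB-stimulated cells, and the H2A rows varied most between the cB arrays. Of the 50 rows, 35 passed the detection filter, which asked for a detection p under 0.05 on 4 arrays or more. Of these 35, 33 were higher in cB and 1 was higher in DC at an adjusted p below 0.05 in the limma fit over all 7167 genes tested. Over all genes tested the fit called 61.4%, with 29.8% higher in cB and 31.6% higher in DC, and nothing is read from the members' counts beside these shares. The median log2 difference, cB minus DC, was 2.51 over the 35 rows and -0.03 over all genes tested. In 33 rows every cB array lay above every DC array and in 1 row every DC array lay above, where 27.7% and 29.1% of all genes tested did so, 56.8% in all. In bulk samples such as these, fewer cells of a kind and less RNA per cell cannot be told apart.

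The filter shaped these counts. Of the 35 rows, 27 were detected on all 8 arrays, 4 on the 4 cB arrays and no DC array, 3 on the 4 cB arrays and some DC arrays, and 1 on the 4 DC arrays and 3 cB arrays. The 4 rows that passed through the cB arrays alone, Hist1h2bb, Hist1h3c, Hist1h3g and Hist1h3h, had to differ. Of the 15 rows not tested, 9 were undetected on every array. These were Hist1h2aa, Hist1h2ac, Hist1h2ba, Hist1h2bg, Hist2h2bb, Hist3h2a, Hist3h2ba, Hist3h2bb and Hist4h4, so clusters 3 and 4 gave no measurement. Hist1h2aa and Hist1h2ba carry the synonyms Th2a and Th2b, the testis variants. The other 6 rows, Hist1h2ae, Hist1h2bc, Hist1h2be, Hist1h3f, Hist2h2be and Hist2h4, were detected on 1 to 3 arrays. Just inside the filter stood the 4 rows with 4 detected arrays, and just outside it Hist1h3f and Hist2h2be with 3. Hist1h3f read between 151 and 186 in cB and between 163 and 184 in DC. Its detection p-values were not ranks among the negative controls, so its 3 calls do not place it near the filter by signal.

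**Figure D1:**
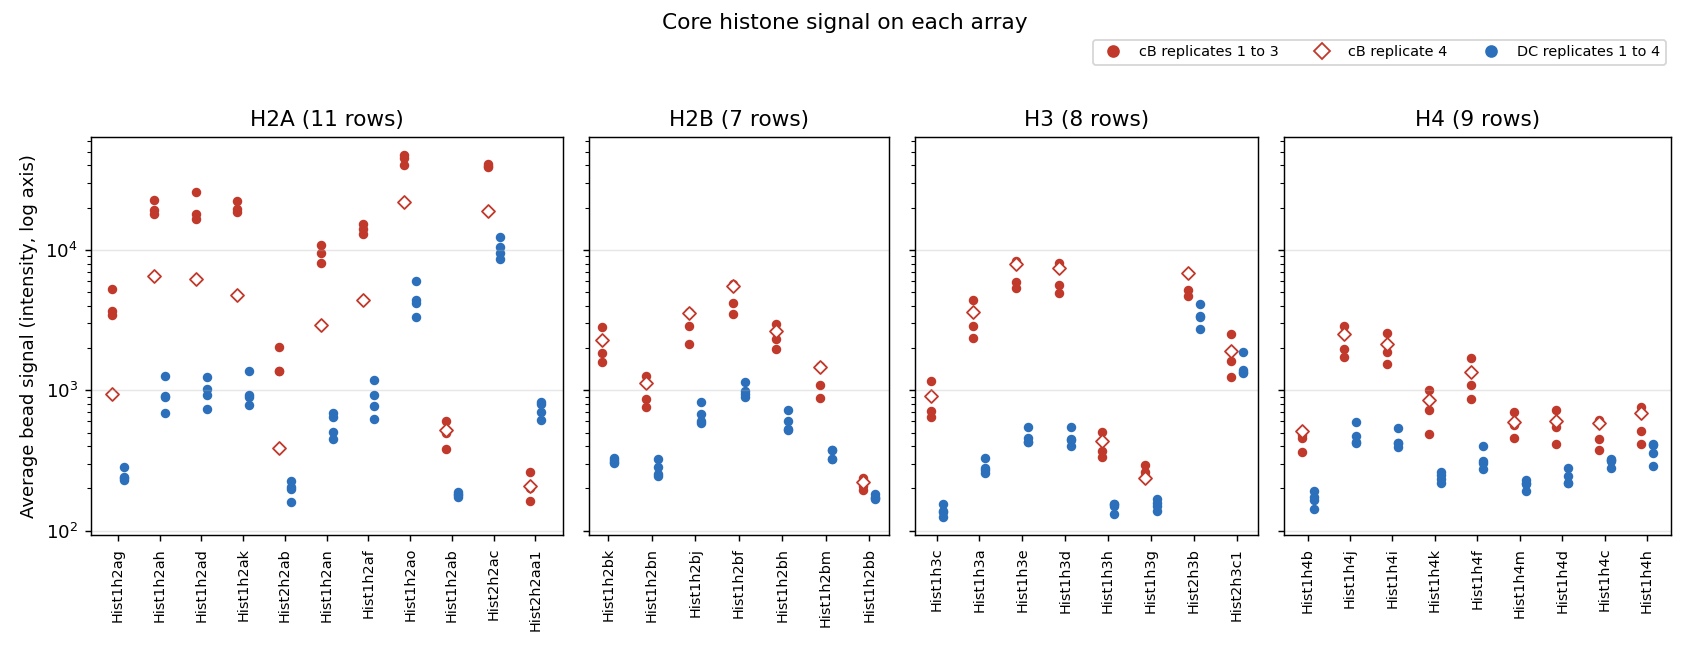
Average bead signal (intensity, log axis) of the 35 tested core histone rows on each of the 8 arrays, by class, ordered by the cB minus DC difference. Filled red points are cB replicates 1 to 3, open red diamonds cB replicate 4 and blue points the 4 DC arrays. In 9 of the 11 H2A rows the diamond lies far below the other cB points, whereas in the other classes it lies among or near them.

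H2A forms a dimer with H2B on the outside of the nucleosome core, and its rows showed the widest range. Hist1h2ah read 17923, 19204, 22867 and 6499 intensity units on cB replicates 1 to 4 and 1265, 903, 916 and 686 on DC replicates 1 to 4. Hist1h2ag read 3435, 3683, 5274 and 942 in cB and 286, 243, 229 and 237 in DC. In both rows the groups were far apart, and cB replicate 4 was well below the other cB arrays. Hist1h2ad read 16497, 17964, 25788 and 6196 in cB against 1250, 1026, 933 and 732 in DC, and Hist1h2ak read 19644, 18765, 22440 and 4753 against 1368, 928, 893 and 780. The same array was lowest in cB each time. The log2 differences were 4.46 ± 0.52 for Hist1h2ag (SE, n = 4 per group), 4.17 ± 0.43 for Hist1h2ah, 4.03 ± 0.44 for Hist1h2ad and 3.97 ± 0.52 for Hist1h2ak. The other cluster 1 rows differed by 3.87 (Hist1h2an), 3.71 (Hist1h2af), 3.03 (Hist1h2ao) and 2.94 (Hist1h2ab). Hist1h2ab was detected on 2 of the 4 DC arrays. Its difference was 1.39 in the authors' deposited table and 0.68 with the background estimated from all genes. Hist1h2ao was the brightest row of the whole table on at least 1 array. Over the 11 tested H2A rows the median was 3.87, with 10 higher in cB and 1 in DC. The shares over all genes tested were 29.8% and 31.6%.

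Cluster 2 held the H2A rows that went in opposite directions. Hist2h2ab read 1369, 1362, 2039 and 389 in cB and 227, 203, 197 and 161 in DC, a log2 difference of 3.88 ± 0.61. It was detected on 3 of the 4 DC arrays, so the size depends on the background setting. The difference computed for it was 2.40 in the authors' deposited table and 2.10 with the background estimated from all genes. Hist2h2ac read 39186, 39765, 40979 and 19090 in cB and 10440, 9482, 12410 and 8621 in DC, a difference of 1.55 ± 0.25. Both were higher on every cB array, and both again had cB replicate 4 as their lowest cB value. Hist2h2aa1 went the other way, with 262, 163, 201 and 208 in cB and 803, 618, 821 and 704 in DC. Its groups did not overlap, and its difference of -3.39 ± 0.28 was the only one past the threshold toward DC among the tested core histone rows. It was detected on 3 of the 4 cB arrays, so its cB level lies near background and the size depends on the background setting. In the authors' deposited table of normalized values the difference computed for it was -1.90. RefSeq now calls Hist2h2aa1 H2ac18 and gives some of its older names to H2ac19 as well, and whether this row reads both was not tested.

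H2B rows were higher in cB by less than most H2A rows and with a small spread. Hist1h2bk read 1840, 1589, 2806 and 2300 in cB and 330, 305, 309 and 318 in DC, a log2 difference of 3.33 ± 0.14. Hist1h2bn read 873, 761, 1273 and 1136 against 323, 246, 283 and 255, and Hist1h2bj 2867, 2155, 3618 and 3558 against 822, 582, 674 and 602. In these rows cB replicate 4 lay inside the range of the other cB arrays. Their differences were 2.53 ± 0.17 for Hist1h2bn and 2.31 ± 0.16 for Hist1h2bj. Hist1h2bf read 4187, 3469, 5697 and 5539 in cB and 1153, 937, 995 and 889 in DC, a difference of 2.25 ± 0.14. Hist1h2bh and Hist1h2bm differed by 2.23 and 2.21, and Hist1h2bb, which no DC array detected, had a bound of at least 1.73-fold toward cB. The log2 difference of Hist1h2bb was 0.26 in the authors' deposited table. The 7 tested H2B rows, all of cluster 1 and all called higher in cB, had a median of 2.25. Of all genes tested 29.8% were called higher in cB. The class has 15 rows, and without the detection filter its median was 0.15.

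H2B also held 2 rows that missed the filter and read higher in DC. Hist1h2bc read 174, 152, 173 and 166 in cB and 421, 282, 333 and 341 in DC, so its groups did not overlap although detection was called on 1 array. Its detection p-values were not ranks among the 798 negative controls, unlike those of 47 of the 50 core histone rows. Without the filter its log2 difference was -2.68 ± 0.19. Hist2h2be read 170, 148, 176 and 177 in cB and 185, 182, 220 and 195 in DC, close to background on all arrays, and differed by -0.76 ± 0.14 without the filter. In the authors' deposited table the differences computed for these rows were -1.11 for Hist1h2bc and -0.26 for Hist2h2be. With no filter 2 more low rows moved past the threshold, Hist3h2a at -0.30 and Hist1h2ae at 0.60. Neither was detected on more than 1 array, and all 4 rows of this paragraph were singled out after their values were seen.

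H3 pairs with H4 in the tetramer at the centre of the nucleosome, and with the main background setting its tested rows split by cluster. In cluster 1, Hist1h3a read 2876, 2366, 4371 and 3589 in cB and 279, 269, 327 and 257 in DC, a log2 difference of 4.29 ± 0.11. Hist1h3e read 5946, 5324, 8337 and 7919 against 458, 427, 550 and 426, a difference of 4.18 ± 0.09, and Hist1h3d differed by 4.11 ± 0.11. These rows showed no low value on cB replicate 4. Hist1h3c read 708, 643, 1169 and 904 in cB, and 154, 139, 135 and 125 in DC, where no array detected it. With the main background setting the cB level was at least 19.4-fold higher. Its log2 difference was 2.54 in the authors' deposited table and 1.60 with the background estimated from all genes. No DC array detected Hist1h3h or Hist1h3g either, which gives bounds of at least 7.25-fold for Hist1h3h and at least 3.13-fold for Hist1h3g. In the authors' deposited table their log2 differences were 1.40 and 0.70. With the main background setting the tested H3 rows of cluster 2 differed least. With the background estimated from all genes, Hist1h3g (0.20) and Hist1h3h (0.54) of cluster 1 lay below Hist2h3b (0.65). Hist1h3f of cluster 1, which missed the filter, differed by -0.11 without it. Hist2h3b read 5146, 4689, 6835 and 6809 in cB and 4138, 2746, 3340 and 3368 in DC, a difference of 0.62 ± 0.15. Hist2h3c1 read 1629, 1236, 2528 and 1913 in cB and 1391, 1332, 1354 and 1863 in DC. Its groups overlapped, and its difference of 0.16 ± 0.17 did not pass (limma adjusted p = 0.45). It was the 1 tested core histone row past the threshold in neither direction. The median over the 8 tested H3 rows was 3.65, or 3.49 with the 3 undetected ones at their bound.

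All 9 tested H4 rows were higher in cB, by sizes that moved with the background setting. Of all genes tested 29.8% were higher in cB. Hist1h4j read 1958, 1717, 2855 and 2536 in cB and 471, 430, 592 and 420 in DC, and Hist1h4i read 1863, 1539, 2551 and 2149 against 424, 395, 537 and 420. The groups were well apart, by 2.51 ± 0.11 and 2.50 ± 0.09 on the log2 scale. Hist1h4b read 458, 362, 477 and 514 in cB and 164, 142, 174 and 191 in DC, where 1 of 4 arrays detected it, and differed by 3.01 ± 0.21. Hist1h4f, Hist1h4k and Hist1h4m differed by between 2.45 and 2.46, and Hist1h4d by 1.97. Hist1h4c (0.93 ± 0.13) and Hist1h4h (0.84 ± 0.18) had the smallest differences of the class. Their groups did not overlap on the normalized scale, although the intensities of Hist1h4h before normalization did (412 on cB replicate 2 and 416 on DC replicate 3). The tested H4 rows, all in cluster 1, had a median of 2.46. With the background estimated from all genes the median was 0.80 and the rows ran from 0.39 to 2.60, with Hist1h4b at 0.59 and Hist1h4j at 2.60. Without background correction the rows ran from 0.57 to 2.11.

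By cluster, the median log2 difference was 2.73 over 30 tested rows of cluster 1, all higher in cB, and 0.62 over 5 tested rows of cluster 2, of which 3 were higher in cB and 1 in DC. Within cluster 1 the class medians were 3.92 for 8 H2A rows, 2.25 for 7 H2B rows, 4.14 for 6 H3 rows and 2.46 for 9 H4 rows. Of the 6 H3 rows 3 were undetected on every DC array, and the median was the same with them at their bound. No test was made between classes or clusters, and the order of the classes turned with the background setting. With the background estimated from all genes these medians were 4.09, 2.45, 2.64 and 0.80, so that H4 then lay below H2B. Over all 8 tested H3 rows the median then fell to 1.12, also below H2B. In the authors' gene-level table, which holds 38 of the 50 rows, the median over those rows was 1.79, and with the background estimated from all genes it was 1.90 over the 35 tested rows.

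**Figure D2:**
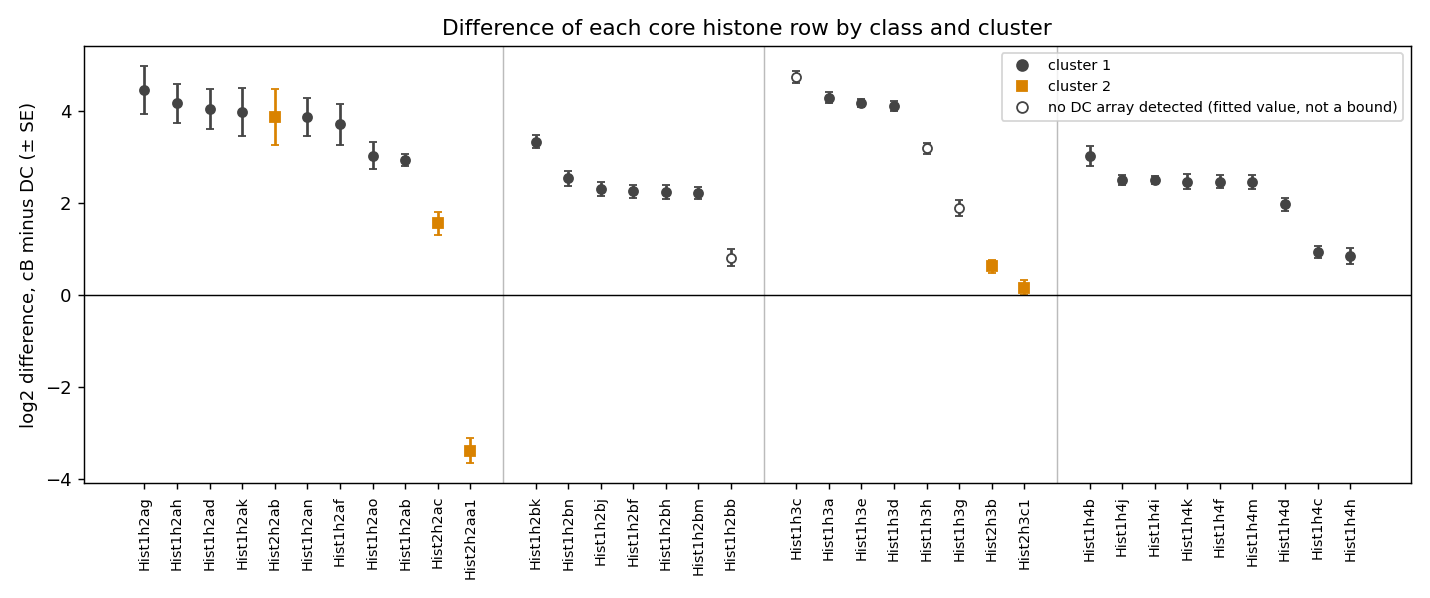
Log2 difference, cB minus DC, of each of the 35 tested core histone rows with its standard error (n = 4 arrays per group), by class. Circles are cluster 1, squares cluster 2 and open circles the 4 rows that no DC array detected, whose fitted value is not a bound. The other 26 cluster 1 rows lie between 0.84 and 4.46 and the 5 cluster 2 rows between -3.39 and 3.88, and error bars are widest in the H2A class.

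The wide error bars of H2A went with low values on 1 array. On cB replicate 4 the signal of 9 H2A rows differed from the mean of the other 3 cB arrays by between -2.72 and -1.11 log2 units, and in all 9 this array was the lowest of the cB group. These were Hist1h2ad, Hist1h2af, Hist1h2ag, Hist1h2ah, Hist1h2ak, Hist1h2an, Hist1h2ao, Hist2h2ab and Hist2h2ac. Of all genes tested, 143 (2%) lay at least 1 log2 unit below in the same way, against between 6 and 30 on each of the other 7 arrays. The other 26 tested core histone rows lay between -0.59 and 0.28 from the other cB arrays, and cB replicate 4 was their lowest cB array in 2. Over all genes tested it was the lowest cB array in 26.9%. Among those 26 are the H2A rows Hist1h2ab (-0.05) and Hist2h2aa1 (-0.12). The SD over the cB arrays was between 0.56 and 1.37 log2 units in the 9 rows and between 0.05 and 0.64 in the 26. The 9 rows were picked for lying at least 1 log2 unit below on cB replicate 4. Their low position and wider SD follow from that cut. The cause of the gap was not tested.

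All 9 of these rows were higher in cB with cB replicate 4 included. It was the lowest cB array in each, so leaving it out could only raise their differences. On cB replicate 4 alone, Hist1h2ah stood 6.86-fold above the DC mean, against 24.7-fold for the mean of the other 3 cB arrays. For Hist1h2ag these folds were 6.26 and 33.4, for Hist1h2ak 4.59 and 23.7, and for Hist2h2ac 1.65 and 3.55. Leaving cB replicate 4 out of the same rows gave an H2A median of 4.33 in place of 3.87, while the medians of H2B (2.24), H3 (3.63) and H4 (2.45) hardly moved. The DC arrays also varied together in these 9 rows, with DC replicate 1 the highest in all 9 and DC replicate 4 the lowest in 7. In the other 26 rows DC replicate 1 was the highest in 14 and DC replicate 4 the lowest in 8. Because rows of a class can share signal, the 9 rows are not 9 independent readings.

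**Figure D3:**
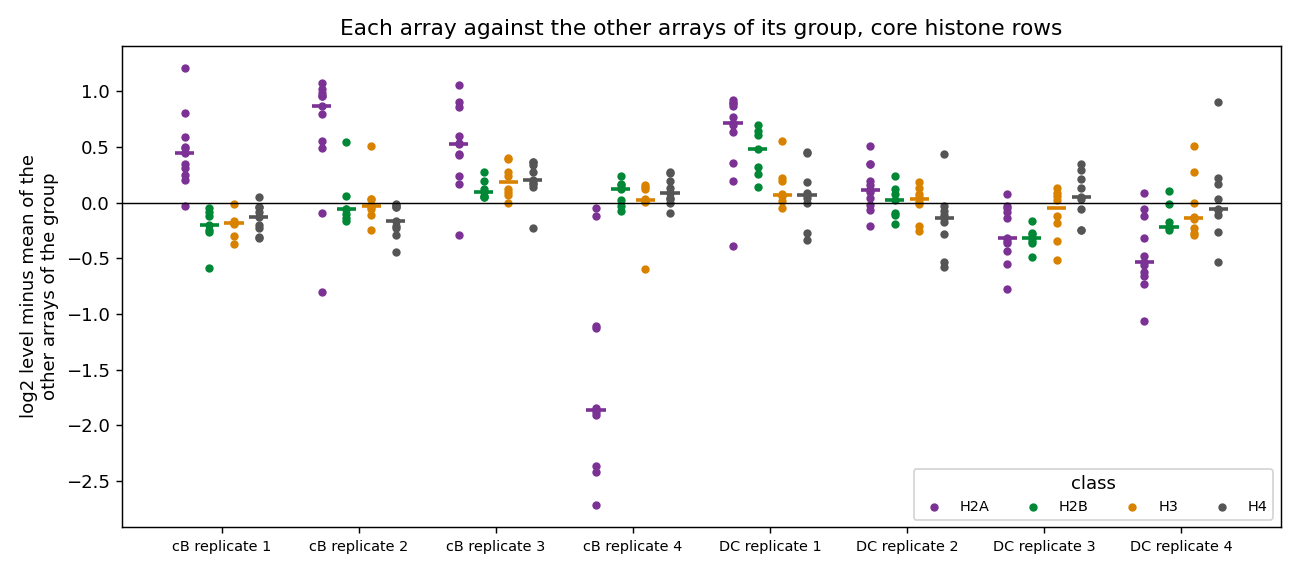
Log2 level of each tested core histone row on each array minus the mean of the other 3 arrays of its group, coloured by class; short bars mark class medians. On cB replicate 4 the H2A median lies at -1.87 while the medians of H2B (0.12), H3 (0.03) and H4 (0.09) lie near 0. Among the DC arrays the H2A median runs from 0.71 on replicate 1 to -0.53 on replicate 4.

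H2A and H2B genes often stand head to head with a shared stretch between their starts. The rows hold 8 pairs of H2A and H2B genes that are neighbours in RefSeq order, separated by between 163 and 280 bases, and in 4 of these pairs both rows were tested. The log2 differences were 4.17 for Hist1h2ah and 3.33 for Hist1h2bk, 4.46 for Hist1h2ag and 2.31 for Hist1h2bj, 4.03 for Hist1h2ad and 2.25 for Hist1h2bf, and 3.97 for Hist1h2ak and 2.53 for Hist1h2bn. In each pair both partners were higher in cB, and the H2A partner had the larger estimate. The partners parted on cB replicate 4, where the H2A rows lay between -2.42 and -1.85 log2 units from the other cB arrays and the H2B rows between 0.02 and 0.17. In the cluster 2 pair, Hist2h2ac was higher in cB while Hist2h2be, read near background, was lower there. In a further pair, Hist1h2ac was undetected on all arrays and Hist1h2bc read higher in DC.

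Promoter windows from RefSeq (GRCm38.p6, 250 bases before to 50 after each start) were found for 44 of the 50 rows, with 45 windows in all. Hist1h2bc, Hist1h3a, Hist1h3f, Hist2h2be, Hist2h4 and Hist3h2bb had none in the table. The letters CCAAT, the box bound by NF-Y, or their reverse complement ATTGG, stood in all 15 H2A, all 13 H2B and all 7 H3 windows and in 2 of 10 H4 windows, against 37.4% of all 32851 windows. The octamer ATTTGCAT or its reverse complement ATGCAAAT, bound by OCT1 in H2B promoters, stood in 7 of 13 H2B and 7 of 15 H2A windows and in no H3 or H4 window, against 1.74% of all windows. TATAAA or its reverse complement TTTATA stood in 57.8% of the core histone windows and in 13.6% of all. These are matches of letters and show neither binding nor a cause, and the windows of paired genes can overlap.

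Windows of 5 rows are shown to set members with different readings beside each other, with the 3 motifs in capitals on either strand. Hist1h2bk (chr13:22035571-22035870, + strand) shares 277 bases of its window with that of its partner Hist1h2ah. Hist2h2ac (chr3:96220831-96221130, - strand) and Hist2h2aa1 (chr3:96245247-96245546, + strand) are the cluster 2 H2A rows of opposite direction. Hist1h3e (chr13:23562336-23562635, - strand) and Hist1h4j (chr13:21734784-21735083, + strand) are a bright H3 row and a bright H4 row.
Hist1h2bk: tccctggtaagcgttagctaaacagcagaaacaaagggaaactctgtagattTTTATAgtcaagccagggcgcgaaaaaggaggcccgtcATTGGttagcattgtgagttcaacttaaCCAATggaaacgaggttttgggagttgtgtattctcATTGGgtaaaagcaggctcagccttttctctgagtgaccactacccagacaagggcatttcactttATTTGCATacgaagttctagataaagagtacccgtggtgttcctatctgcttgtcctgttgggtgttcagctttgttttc
Hist2h2ac: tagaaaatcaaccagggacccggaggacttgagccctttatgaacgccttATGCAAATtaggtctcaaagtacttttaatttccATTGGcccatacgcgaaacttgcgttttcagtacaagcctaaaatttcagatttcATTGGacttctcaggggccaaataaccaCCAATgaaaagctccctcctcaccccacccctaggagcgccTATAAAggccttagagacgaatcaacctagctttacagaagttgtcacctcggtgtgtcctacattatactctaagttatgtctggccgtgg
Hist2h2aa1: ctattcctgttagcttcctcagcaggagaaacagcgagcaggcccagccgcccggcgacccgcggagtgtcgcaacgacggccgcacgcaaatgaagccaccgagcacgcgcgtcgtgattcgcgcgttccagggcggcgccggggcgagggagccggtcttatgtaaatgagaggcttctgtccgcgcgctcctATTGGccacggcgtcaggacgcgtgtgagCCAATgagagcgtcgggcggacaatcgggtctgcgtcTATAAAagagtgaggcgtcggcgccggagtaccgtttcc
Hist1h3e: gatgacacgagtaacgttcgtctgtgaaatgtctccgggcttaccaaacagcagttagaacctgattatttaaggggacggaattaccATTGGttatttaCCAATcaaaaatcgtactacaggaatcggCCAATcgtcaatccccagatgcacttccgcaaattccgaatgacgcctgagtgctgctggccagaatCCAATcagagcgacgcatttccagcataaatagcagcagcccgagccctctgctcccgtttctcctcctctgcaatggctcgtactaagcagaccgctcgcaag
Hist1h4j: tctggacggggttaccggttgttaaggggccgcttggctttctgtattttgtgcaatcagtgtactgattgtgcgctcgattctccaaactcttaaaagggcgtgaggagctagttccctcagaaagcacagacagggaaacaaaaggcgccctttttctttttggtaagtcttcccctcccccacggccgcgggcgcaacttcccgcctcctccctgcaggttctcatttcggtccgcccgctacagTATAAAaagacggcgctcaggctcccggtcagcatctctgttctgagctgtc
The window of Hist1h2bk holds 3 CCAAT boxes, 1 TATAAA match on the other strand and 1 octamer. That of Hist2h2ac holds 3, 1 and 1 of these, and that of Hist2h2aa1 2, 1 and 0. The Hist1h3e window holds 4 CCAAT boxes and neither other motif, and the Hist1h4j window 1 TATAAA and neither other motif.

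Other histone genes moved in both directions. Of 8 linker histone rows 2 were tested, and the call of Hist1h1b did not hold with the background estimated from all genes. Hist1h1b was higher in cB (0.92 ± 0.24) and Hist1h1c was higher in DC (-5.23 ± 0.24), with 377, 216, 337 and 262 in cB and 5415, 4473, 4664 and 4877 in DC. Replacement histones are made outside S phase as well and from genes outside the clusters. Of their 7 rows 4 were higher in cB and 2 in DC, with a median of 0.51. Over all genes tested 61.4% were called, 29.8% higher in cB and 31.6% in DC, and nothing is read from the linker and replacement histone counts. Cenpa, the centromeric H3 variant, differed by 3.91 ± 0.26, H2afx, phosphorylated at DNA breaks, by 1.96 ± 0.16, and H2afz by 1.66 ± 0.09. H3f3a (0.51 ± 0.11) was the fourth, and H2afj (-1.54 ± 0.19) and H3f3b (-0.99 ± 0.09) were those higher in DC. H3f3a was called detected on 3 cB arrays and 1 DC array, with detection p-values that were not ranks among the negative controls. H3f3a and H2afj are named because they complete these counts, after their values were seen.

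Genes that handle histone mRNA and chaperones of new histone proteins had members past the threshold in both directions. Their counts stand beside the 61.4% of all genes that were called, and nothing is read from them. Of 16 rows for histone mRNA processing and decay, 9 were tested, 4 were higher in cB and 1 in DC, with a median of 0.19. Ncbp1, a cap-binding subunit, differed by 1.03 ± 0.13, and Cstf2, the polyadenylation factor CstF-64, by 0.40 ± 0.09. Srrt and Ncbp2, both cap-associated, differed by 0.35 and 0.53 (Ncbp2 is named to complete the count, and its groups overlapped), and Mif4gd, a partner of the stem-loop binding protein, by -0.44 ± 0.09. The call toward DC was lost under median scaling. Slbp, which encodes that stem-loop binding protein, was undetected on all arrays. Of 16 histone chaperone rows, 14 were tested, 10 were higher in cB and 1 in DC, with a median of 1.44. Of the 10, 2 passed the filter through the cB arrays alone, and among rows detected on all 8 arrays 6 of 9 were higher in cB. Chaf1b and Chaf1a, subunits of the CAF-1 complex that loads H3 and H4 onto new DNA, differed by 5.41 ± 0.13 and 5.29 ± 0.19, with detection on 2 and 1 of the 4 DC arrays. In the authors' deposited table the differences computed for Chaf1b and Chaf1a were 3.54 and 3.24. Asf1b, an H3 and H4 chaperone that no DC array detected, read higher in cB by a factor of at least 12.09. The log2 difference of Asf1b was 1.79 in the authors' deposited table. Mcm2, a helicase subunit that also binds H3 and H4, differed by 3.63 ± 0.09. Asf1a, related to Asf1b, differed by -0.41 ± 0.13. The groups overlapped in Asf1a, which is named to complete the count, and it did not pass or was not tested under 8 of 12 other settings that kept all arrays.

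All 16 tested rows of a 20-gene S phase list were higher in cB, with a median of 3.74, and 6 of the 16 were undetected on every DC array. Over all genes tested 29.8% were higher in cB. The count was 10 of 10 without any 1 of the 4 cB arrays, since fewer rows then passed the filter, and 7 of 7 among rows detected on all 8 arrays. E2f1, an S phase transcription factor, differed by 5.17 ± 0.13, the helicase subunit Mcm5 by 4.92 ± 0.10, and Tyms, which makes thymidylate, by 4.31 ± 0.10. E2f1 and Tyms read near background in DC, and in the authors' deposited table their differences were 3.40 and 2.66. Mcm4 read between 400 and 472 in DC and was not called detected there, with detection p-values that were not ranks among the negative controls, so no size is given for it. On cB replicate 4 the median of these rows was -0.05 log2 units from the other cB arrays. Among the untested S phase rows, Ccna2, Pola1 and Prim1 were undetected on all 8 arrays. Cdc6 read between 304 and 419 in cB and between 142 and 157 in DC but missed the filter. It was called detected on 1 cB array, with detection p-values that were not ranks among the negative controls. The S phase and histone supply lists were drawn up with results of these data known.

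**Figure D4:**
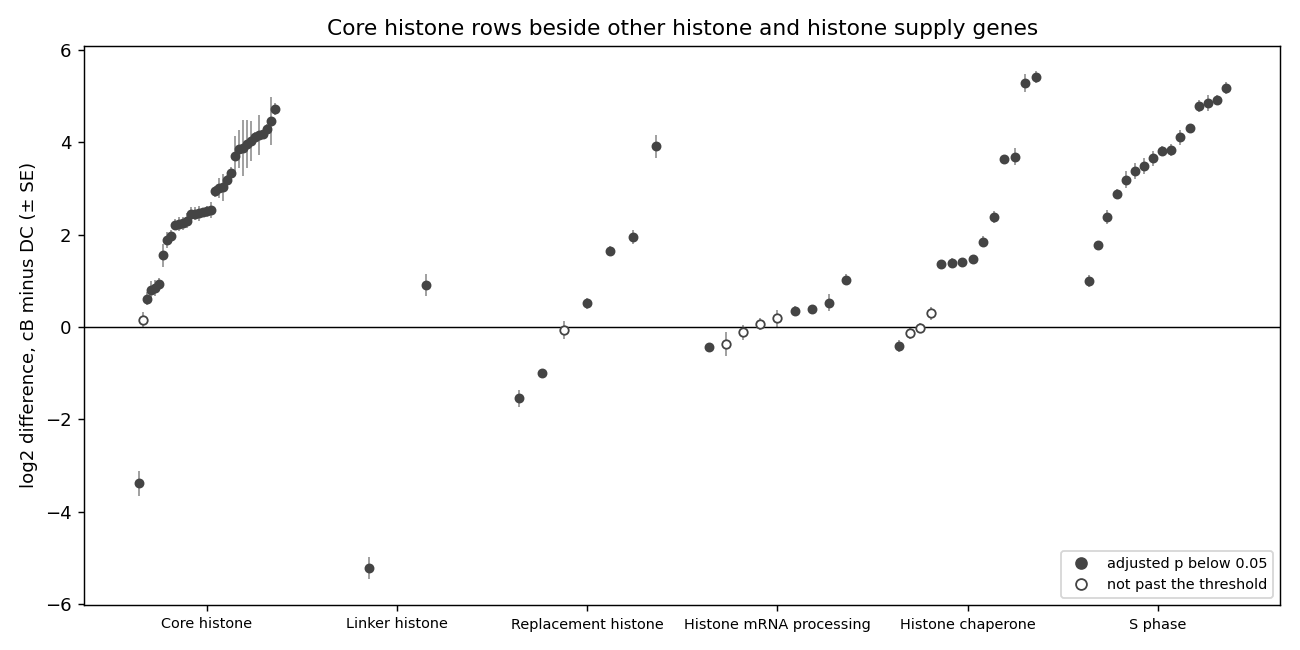
Log2 difference, cB minus DC, with standard error (n = 4 arrays per group) of tested rows in 6 lists, each ordered by size; filled points passed an adjusted p of 0.05 over all genes tested and open points did not. Core histones, chaperones and S phase genes lie mostly above 0, and mRNA processing genes lie between -0.44 and 1.03. Rows that no DC array detected are drawn at their fitted value, which is not a bound.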

How the data were processed

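Expression of 8 sorted OT-1 samples, 4 per group as their titles say, was read on Illumina mouse-ref8-v2.0 beadchips. The deposited non-normalized table holds, per the file headers, 1 linear intensity (the average signal of the beads) and 1 detection p-value for each gene name and array. Normalized log2 values were deposited too, per gene and per probe. No source used here gives the normalization method. Probe-level values carry no gene names and were not used. For the tested core histone rows, differences in the authors' gene-level log2 values matched those from quantile normalization without background correction within 0.0004.

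Log2 values were computed with limma 3.58.1 in R 4.3.3. Background came from detection p-values that were whole multiples of 1 part in 798 (tolerance 0.001 of a step, 13929 genes), normexp used an offset of 16, followed by quantile normalization. Mean intensity per array was between 602 and 824, and between 38.3% and 40.8% of genes were detected. Genes with detection p below 0.05 on at least 4 arrays (7167) were fitted with lmFit and eBayes, with Benjamini-Hochberg adjustment over all of them and a threshold of 0.05. Differences are cB minus DC with the standard error of the fit. For a row that no array of a group detected, the bound ("at least") sets the mean of the brighter group against a floor, averaged over the dim arrays, that is the lowest detected value or the row's own value where higher. A bound holds for this background setting only, and other settings can give smaller differences. All core histone rows are accounted for. Values per array are given for the 3 largest differences per class and direction, the tested rows of cluster 2 and the tested H2A and H2B pairs, and from other lists up to 4 genes by lowest p. Some further rows were named after their values were seen. The value of 1 marker gene is not reported here. Members and lists were chosen with earlier results of these data known. Alternatives were other backgrounds, offsets, normalizations, filters and variance settings, the authors' values, the replicate number as a block and leaving out each array. The procedure was tested on simulated data.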

Additional observations from a re-analysis of the deposited data

Results flagged for a closer look

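Of 70 sets of 4 arrays (35 tested core histone rows in each group), 6 had 1 array whose gap to the nearest other array exceeded Dixon's critical share of the set's whole range. Chance gives about 1 in 20 such sets. On cB replicate 4 these were the low values of Hist1h2ag (gap 0.845 of the range), Hist1h2ah (0.844), Hist1h2ak (0.892) and Hist2h2ab (0.871). The others were the high value of Hist1h2bn on DC replicate 1 (0.910) and the low value of Hist1h3d on DC replicate 4 (0.843). These rows can share signal within a class, so the H2A entries are not independent.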

How the results depend on the processing

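Under 20 other settings, and 1 more chosen after the data were seen, 210 of 247 recomputed counts, shares and medians kept their place, and no sign turned. A count or share kept its place within a factor of 1.5 of the main value, and a median within the spread between replicates. Against 1 of 35, the core histone rows called higher in DC were 3 of 38 in the authors' values, 4 of 50 without the detection filter and 0 of 27 among rows detected on all 8 arrays. Without the filter 25.3% of all genes were called. With background from all genes the median log2 differences were 1.90 (core histones), 2.45 (H2B), 1.12 (H3), 0.80 (H4) and 2.48 (cluster 1). With no background correction they were 1.93, 1.93, 1.97, 1.36 and 2.05 in that order. In the authors' values they were 1.79, 1.75, 1.97, 1.36 and 2.04, and 0.14 for cluster 2. An offset of 50 gave 2.25 (core histones), 2.89 (H3), 2.13 (H4) and 2.27 (cluster 1). Without the filter they were 2.22 (core histones), 3.03 (H2A), 0.15 (H2B), 3.18 (H3), 2.46 (cluster 1) and 0.091 (cluster 2). Rows detected on all arrays gave 4.11 (H3) and 2.52 (cluster 1), and a detection p below 0.01 gave 2.94 (cluster 1). Filters change which rows enter a median. The cause of the other shifts was not tested.

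Leaving out 1 array at a time gave medians between 2.46 and 2.57 (core histones), 3.60 and 4.33 (H2A), 2.17 and 2.39 (H2B), 3.65 and 4.16 (H3), 2.38 and 2.50 (H4), 2.68 and 2.78 (cluster 1), and 0.53 and 0.76 (cluster 2). Without any 1 of the cB arrays 29 of 31 core histone rows were higher in cB, since fewer rows then passed the filter. Without any 1 of the DC arrays it was 33 of 35. Between 58.0% and 61.1% of all genes tested were then called in either direction. With the replicate number as a block, the calls were 33 core histone rows toward cB and 1 toward DC, the medians were the same, and 61.8% of all genes were called. Same-numbered arrays correlated at between 0.08 and 0.18 in their deviations from the group means, and in 4 of 4 cases a cB array correlated best with its own number, which is a hint from the data only. Signal close to background limits the size of differences in rows undetected in 1 group.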

Other observations

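The low values of cB replicate 4 were not limited to histones. Among all genes tested, those furthest below the other 3 cB arrays were Reep3 (-3.01 log2 units), Pdpk1 (-2.86), Hist2h2ab (-2.72), Bach2 (-2.63), Gna13 (-2.61), Zbtb7a (-2.59) and Khsrp (-2.57), followed by Hist1h2ag (-2.42) and Hist1h2ak (-2.37). These genes were named after their values were seen.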
